A study of Mus musculus with 12 samples.

Results

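The 9 genes described here encode subunits of nicotinic acetylcholine receptors (Chrna3, Chrna4, Chrna6, Chrna7, Chrnb2, Chrnb3 and Chrnb4) and of the 5-HT3 serotonin receptor (Htr3a and Htr3b). They were chosen by name, as 9 of the 44345 genes listed in the deposited table, and all 9 passed the filter on low values. RNA was measured by sequencing in dorsal root ganglia (DRG, which hold the cell bodies of sensory neurons) taken at levels L4 to L6 from C57BL/6 mice aged 6 to 8 weeks. PBS mice were given phosphate-buffered saline by daily gavage for 10 days, and IPA mice were given indole-3-propionic acid, an indole made by gut bacteria from tryptophan, at 20 mg/kg in the same way. PBS-SNC and IPA-SNC mice also had the sciatic nerve crushed after those 10 days, and IPA gavage then went on for 3 more days; the labels do not make clear whether vehicle gavage went on too. Each group had 3 libraries, each from the pooled ganglia of 2 mice, and each library held 40938034 to 62501969 reads recovered from the table. A crush of the sciatic nerve spares the neurons of these ganglia whose axons run elsewhere, so an injured library mixes injured and uninjured neurons.

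Nicotinic and 5-HT3 receptors are ligand-gated cation channels of the Cys-loop superfamily, each built of a ring of 5 subunits. Acetylcholine opens nicotinic receptors and serotonin opens 5-HT3 receptors, and in sensory neurons both depolarize the cell. Which subunits come together sets the affinity, calcium permeability and drug response of the channel. Alpha 7 (Chrna7) can form a receptor alone; alpha 3 with beta 4 (Chrna3, Chrnb4) is the form typical of autonomic ganglia; alpha 4 with beta 2 (Chrna4, Chrnb2) is the main high-affinity form in brain; and beta 3 (Chrnb3) is an accessory subunit that joins alpha 6 (Chrna6). Htr3a forms channels alone, while Htr3b needs Htr3a to reach the cell surface.

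The libraries carried the markers of the labelled tissue. The summed value of 10 sensory neuron markers was 10375 to 11156 in PBS and 8732 to 9388 in PBS-SNC libraries, and none of the 10 was at 0 in any library. Of 5 sympathetic neuron markers, whose summed value was 0.281 to 0.474 in PBS, 2.13 to 4.07 in PBS-SNC, 0.142 to 0.287 in IPA and 1.49 to 2.48 in IPA-SNC libraries, 1 was tested, and it rose after injury under PBS and under IPA (log2 changes of 1.89 and 1.96). It passed the filter only through injured libraries. Dbh at 1.27, Slc6a2 at 0.980 and Hand2 at 0.290, named after their values were seen, all reached their highest value in PBS-SNC replicate 2. The tested marker did not. It read 1.23, 1.47 and 1.56 in PBS-SNC and 1.77, 1.79 and 1.00 in IPA-SNC libraries. Of the 3 motor neuron markers, Mnx1 and Chat stayed at 0.185 or less, and Slc5a7 read 1.82 to 2.80 and rose after injury under IPA (log2 change 0.38, adjusted limma p of 0.0151) and not under PBS. The part of such cells in the subunit values was not tested. Skeletal muscle RNA was present and uneven: the summed value of 5 muscle markers ran from 57.2 to 95.1 in PBS, 68.1 to 242.9 in PBS-SNC, 28.4 to 69.8 in IPA and 38.6 to 226.5 in IPA-SNC libraries. None of the 5 passed as changed by injury under PBS, while all 5 passed as higher without PBS-SNC replicate 2. PBS-SNC replicate 1 and IPA-SNC replicate 3 stood furthest from the other libraries of their groups, and no pair of libraries of a group agreed within sampling noise.

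Levels were first set against each other per length of transcript, since the deposited values are scaled to library depth alone and grow with gene length. Htr3a stood highest in uninjured PBS ganglia, at 76.4 ± 4.16 per kilobase (SD, n = 3). Chrna6 (18.8 ± 0.34), Chrnb2 (18.3 ± 0.64) and Chrna7 (18.3 ± 1.08) followed at levels that did not differ beyond their spread. Htr3b came next at 8.71 ± 0.29. Chrnb3 (2.77 ± 0.25), Chrna3 (2.74 ± 0.91) and Chrnb4 (2.41 ± 0.50) could not be ranked among themselves, and Chrna4 was lowest at 1.20 ± 0.08. The length used is that of the longest annotated transcript. With all exons merged instead, Chrna7 came to 11.4, Chrnb2 to 14.0, Chrnb3 to 2.00 and Chrna4 to 1.09, so that Chrna6, Chrnb2 and Chrna7 were no longer level.

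**Figure D1:**
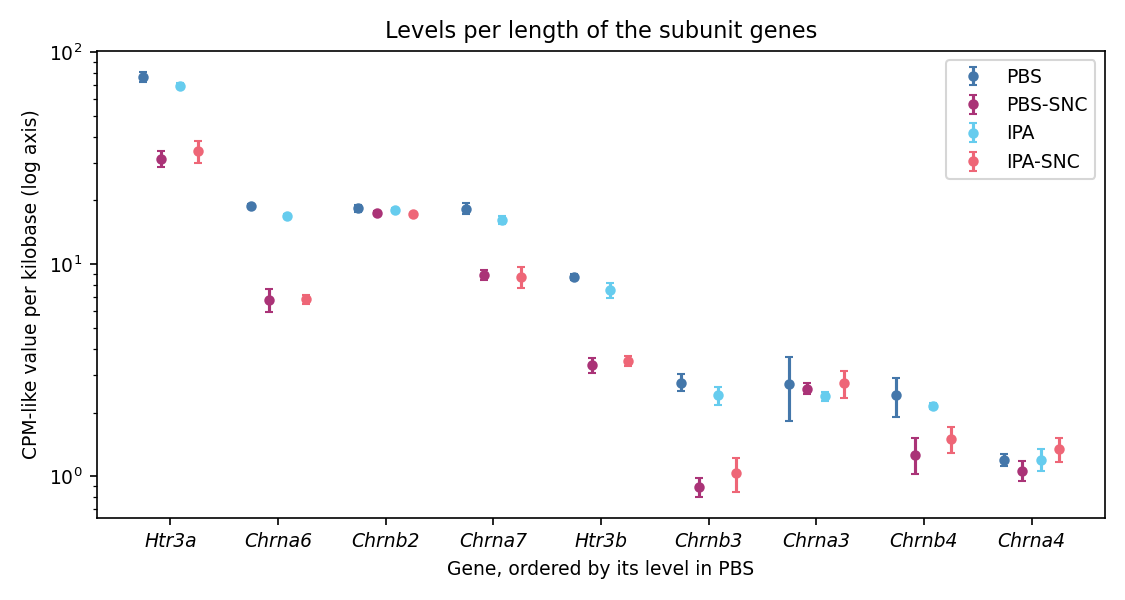
Level per kilobase of the 9 subunit genes (mean of 3 libraries with SD, log axis, deposited value divided by the length of the longest transcript), in the order of the PBS means. Htr3a is highest in all 4 groups, at 76.4 in PBS and 31.5 in PBS-SNC, and Chrnb2, at 18.3 and 17.5, ranks above Chrna6 and Chrna7 in both injured groups.

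After the crush the order changed. In PBS-SNC ganglia Htr3a was still highest at 31.5 ± 2.69 per kilobase (SD, n = 3), followed by Chrnb2 at 17.5 ± 0.29, which now stood apart from Chrna7 at 8.92 ± 0.53 and Chrna6 at 6.80 ± 0.86. Htr3b was at 3.34 ± 0.26, Chrna3 at 2.60 ± 0.16, Chrnb4 at 1.27 ± 0.24 and Chrna4 at 1.06 ± 0.11. Chrnb3, level with Chrna3 before injury, had the lowest mean at 0.89 ± 0.09, though its libraries overlapped those of Chrna4. The levels per kilobase in IPA ganglia were 69.6 ± 1.68 for Htr3a, 18.1 ± 0.45 for Chrnb2, 16.96 ± 0.27 for Chrna6 and 16.2 ± 0.72 for Chrna7. In IPA-SNC ganglia those 4 genes stood at 34.2 ± 4.05, 17.2 ± 0.26, 6.83 ± 0.36 and 8.74 ± 1.01. The order of Chrna7 and Chrna6 after injury depended on the length used. With all exons merged, Chrna7 was the lower, at 5.57 against 6.80 in PBS-SNC and 5.46 against 6.83 in IPA-SNC ganglia.

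Nerve crush under PBS was followed by lower values of 6 of the 9 subunits and higher values of none. Chrna6, Chrnb3, Chrna7, Chrnb4, Htr3a and Htr3b fell to between 32.3% and 52.6% of their PBS means, while Chrna3, Chrna4 and Chrnb2 did not pass the test. The test was limma on log2(value + 0.5) over 15603 genes in all 12 libraries, with a Benjamini-Hochberg adjusted p under 0.05 as the threshold. Injury moved much of the transcriptome: 24.4% of the tested genes passed as lower, 23.6% as higher and 48% in either direction. The injured and uninjured libraries did not overlap in 7 of the 9 members, all of them lower after injury, against 26% of the tested genes that were separated downward, 25.4% upward and 51.4% in either direction. The median log2 change was -1.02 over the 9 members and 0.00 over all genes tested. In whole ganglia, fewer cells of a type and less RNA per cell cannot be told apart.

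Among the nicotinic genes the pair Chrna6 and Chrnb3 fell most. Chrna6 read 54.5, 53.9 and 55.8 in the PBS libraries and 22.5, 17.6 and 19.2 in the PBS-SNC libraries. Every injured library lay below 23 and every uninjured one above 53. The log2 change of Chrna6 was -1.45 ± 0.07 (SE), with an adjusted p of 2.06e-09 in limma.

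Chrnb3 read 12.04, 12.04 and 14.1 in PBS and 4.08, 3.70 and 4.53 in PBS-SNC libraries. The groups were again far apart, and the injured mean was 32.3% of the PBS mean, the lowest share among the 9 genes. Its log2 change was -1.52 ± 0.12 (SE), with an adjusted limma p of 1.55e-07. The ratio of Chrna6 to Chrnb3 per kilobase was 6.83 ± 0.49 in PBS and 7.63 ± 1.02 in PBS-SNC (SD, n = 3), with values of 6.26 to 7.15 and 6.69 to 8.71. The 2 ranges overlap, so a change in this ratio was not detectable with 3 libraries a group.

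Chrna7, which encodes the subunit of the calcium-permeable homomeric receptor, read 53.1, 53.3 and 47.9 in PBS and 26.6, 23.6 and 25.1 in PBS-SNC libraries. The injured mean was 48.8% of the PBS mean, and the groups did not overlap. Its log2 change was -1.02 ± 0.08 (SE; adjusted limma p of 1.79e-07).

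Both 5-HT3 subunit genes fell. Htr3a, the subunit that every 5-HT3 receptor holds, read 156.0, 152.4 and 168.9 in PBS and 68.6, 59.1 and 69.1 in PBS-SNC libraries, a log2 change of -1.27 ± 0.08 (SE; adjusted limma p of 1.59e-08). Htr3b read 21.0, 20.3 and 21.7 in PBS and 8.75, 7.52 and 7.93 in PBS-SNC libraries, a log2 change of -1.33 ± 0.08 (SE; adjusted limma p of 8.32e-09). Neither gene's groups overlapped, and the injured means were 41.2% and 38.4% of the PBS means. The ratio of Htr3b to Htr3a per kilobase was 0.114 ± 0.003 in PBS and 0.106 ± 0.006 in PBS-SNC (SD, n = 3), with the highest injured library at 0.110 and the lowest uninjured one at 0.111. The ratio was not tested.

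Chrna4 and Chrnb2, the subunits of the brain-type receptor, stayed near their uninjured values. Chrnb2 read 114.2, 115.7 and 122.0 in PBS and 112.7, 113.3 and 109.9 in PBS-SNC libraries. Every injured library was below every uninjured one, yet the log2 change was only -0.07 ± 0.04 (SE) and did not pass (adjusted limma p of 0.201, 95% interval -0.15 to 0.02). Chrna4 read 5.09, 5.82 and 5.48 in PBS and 5.43, 4.41 and 4.72 in PBS-SNC libraries, which overlap. Its log2 change was -0.16 ± 0.11 (SE; adjusted limma p of 0.256, 95% interval -0.40 to 0.08).

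**Figure D2:**
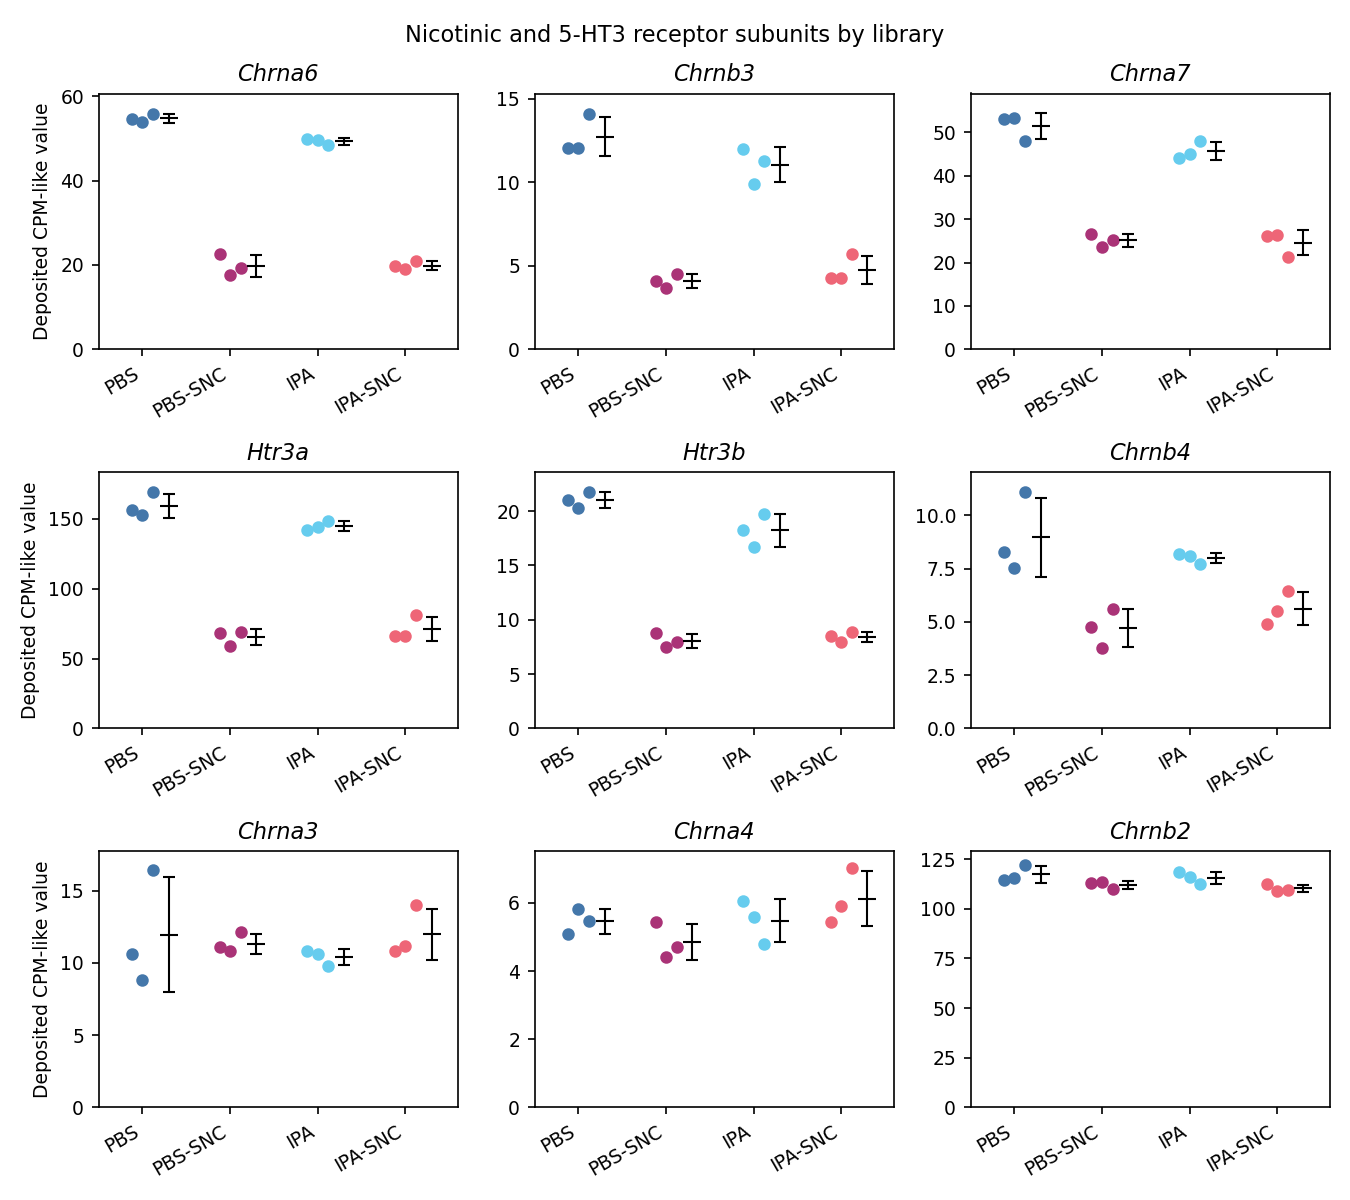
Deposited value, scaled to library depth, of each subunit gene in every library (points), with the mean and SD of the 3 libraries of each group beside them; each panel has its own axis from 0. In the panels of Chrna6, Chrnb3, Chrna7, Htr3a and Htr3b all injured libraries lie far below all uninjured ones, whereas those of Chrna3 and Chrna4 overlap and those of Chrnb2 differ by little.

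Chrna3 and Chrnb4 lie side by side and are transcribed from the same strand, with Chrna5 next to them, but the 3 genes did not move together. On mm10, Chrna5 spans 54980880 to 55007779 of chromosome 9 on the plus strand. Chrna3 (55010111 to 55026562) and Chrnb4 (55028154 to 55048779) are on the minus strand. The gaps between the genes are 2331 and 1591 bases. Chrnb4 fell after injury: it read 8.29, 7.55 and 11.1 in PBS and 4.77, 3.79 and 5.60 in PBS-SNC libraries. Its log2 change was -0.86 ± 0.14 (SE), with an adjusted limma p of 0.000257.

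Chrna3 showed no such fall. It read 10.6, 8.80 and 16.4 in PBS and 11.1, 10.8 and 12.1 in PBS-SNC libraries, a log2 change of -0.03 ± 0.17 (SE; adjusted limma p of 0.898, 95% interval -0.39 to 0.33). PBS replicate 3 set the width of that interval, and without it the change was 0.22 with an adjusted p of 0.139. In the same library Chrnb4 was also the highest of its group.

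Chrna5, which is not among the 9 members and encodes an accessory subunit that joins alpha 3 and beta 4, rose. It read 0.482, 0.322 and 0.331 in PBS, from 17 to 25 reads each, and 3.26, 2.85 and 2.79 in PBS-SNC libraries, from 157 to 200 reads each. The injured mean was 7.84 times the PBS mean, and the log2 change was 1.98 ± 0.11 (SE; adjusted limma p of 6.33e-09). Chrna5 passed the filter on low values only through the injured libraries, so it had to differ to be tested, and the log2 scale with 0.5 added understates its change.

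The ratio of Chrna3 to Chrnb4 within each library does not depend on depth. Per kilobase it was 1.09, 0.996 and 1.27 in PBS and 1.98, 2.43 and 1.85 in PBS-SNC libraries. It was 1.13, 1.12 and 1.08 in IPA and 1.88, 1.73 and 1.86 in IPA-SNC libraries. All 6 injured libraries were above all 6 uninjured ones, a description with no test of its own.

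**Figure D3:**
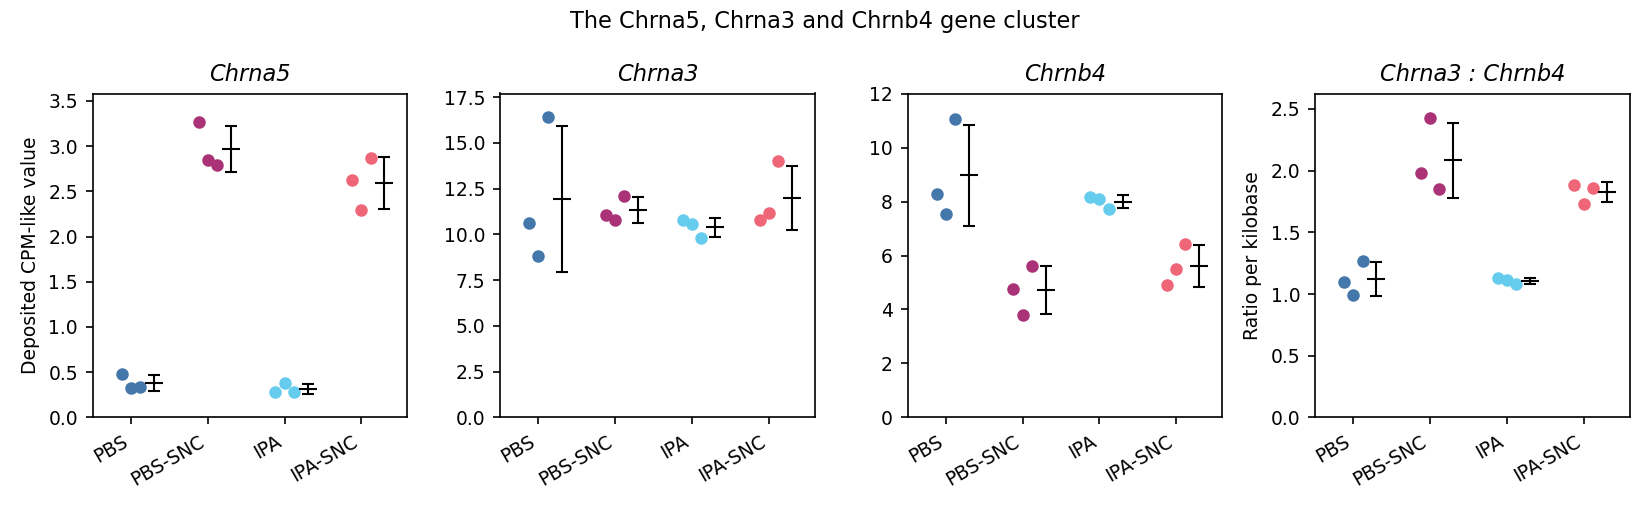
Deposited values, scaled to library depth, of the neighbouring genes Chrna5, Chrna3 and Chrnb4, and the ratio of Chrna3 to Chrnb4 per kilobase, in each library (points) with the mean and SD of 3 libraries. Chrna5 is higher and Chrnb4 lower in all injured libraries, Chrna3 overlaps between groups, and the ratio runs from 0.996 to 1.27 without injury and from 1.73 to 2.43 with it.

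Promoter windows from RefSeq (GRCm38.p6, the mm10 assembly; 250 bases before to 50 after an annotated start) matched 6 of the 9 members and Chrna5. They are shown for the cluster, whose 3 genes took 3 courses, and for Chrna7 and Htr3b, which both fell. Capitals mark the GC box GGGCGG and the short ATF or CREB site TGACG on either strand (CCGCCC and CGTCA when reversed). Chrna5 has 2 annotated starts.
Chrna5 first start, chr9:54980630-54980929 plus strand: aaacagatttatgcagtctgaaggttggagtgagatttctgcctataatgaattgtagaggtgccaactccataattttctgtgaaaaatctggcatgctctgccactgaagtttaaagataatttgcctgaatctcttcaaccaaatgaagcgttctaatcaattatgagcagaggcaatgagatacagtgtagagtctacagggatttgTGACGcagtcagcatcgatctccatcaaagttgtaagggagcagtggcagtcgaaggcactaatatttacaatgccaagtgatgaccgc
Chrna5 second start, chr9:54981238-54981537 plus strand: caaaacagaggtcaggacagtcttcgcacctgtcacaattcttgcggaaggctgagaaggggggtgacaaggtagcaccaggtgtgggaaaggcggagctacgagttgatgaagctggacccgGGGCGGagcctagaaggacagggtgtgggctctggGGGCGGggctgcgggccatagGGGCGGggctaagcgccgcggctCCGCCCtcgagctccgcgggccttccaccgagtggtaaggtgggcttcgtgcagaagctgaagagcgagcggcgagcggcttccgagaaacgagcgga
Chrna3, chr9:55026513-55026812 minus strand: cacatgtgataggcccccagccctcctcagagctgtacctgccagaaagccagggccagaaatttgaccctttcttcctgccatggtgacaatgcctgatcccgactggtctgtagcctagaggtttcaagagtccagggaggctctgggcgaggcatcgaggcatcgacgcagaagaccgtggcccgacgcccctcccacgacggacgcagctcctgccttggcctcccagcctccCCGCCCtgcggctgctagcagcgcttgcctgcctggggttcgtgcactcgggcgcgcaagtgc
Chrnb4, chr9:55048495-55048794 minus strand: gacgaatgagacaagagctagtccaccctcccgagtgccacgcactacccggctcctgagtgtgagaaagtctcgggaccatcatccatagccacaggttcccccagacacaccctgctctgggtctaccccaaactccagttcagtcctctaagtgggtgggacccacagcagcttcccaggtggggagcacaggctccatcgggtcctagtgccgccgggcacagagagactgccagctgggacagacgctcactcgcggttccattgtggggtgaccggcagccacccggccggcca
Chrna7, chr7:63212477-63212776 minus strand: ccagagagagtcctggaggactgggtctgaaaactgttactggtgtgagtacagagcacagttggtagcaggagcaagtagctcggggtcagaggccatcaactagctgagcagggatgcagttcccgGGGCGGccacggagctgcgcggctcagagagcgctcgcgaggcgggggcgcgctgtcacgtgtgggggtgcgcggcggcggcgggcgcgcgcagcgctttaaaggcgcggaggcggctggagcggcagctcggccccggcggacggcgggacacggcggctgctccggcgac
Htr3b, chr9:48964941-48965240 minus strand: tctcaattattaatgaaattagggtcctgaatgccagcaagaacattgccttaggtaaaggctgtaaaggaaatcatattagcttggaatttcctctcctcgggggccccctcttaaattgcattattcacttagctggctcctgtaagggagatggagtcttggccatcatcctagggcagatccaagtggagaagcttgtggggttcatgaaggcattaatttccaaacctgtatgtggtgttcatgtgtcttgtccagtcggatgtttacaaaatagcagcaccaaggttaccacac

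The windows differ widely in composition. The first Chrna5 window had 41.3% G or C and 5 CpG pairs, and the second had 65% and 25. Chrna7, at 70% with 35 CpG pairs, and Htr3b, at 44.3% with 2, both fell after injury. Chrna3 and Chrnb4 were alike in composition, at 64.3% with 18 and 63% with 14, and the median over all 32851 windows was 52.7% with 7.

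Motif matches were few. The first Chrna5 window held 1 short site, from base 212 of the window, and the second held 4 GC boxes. Chrna3 and Chrna7 held 1 GC box each, Chrna4 held 3, and Chrnb2 held 1 together with 1 short site; the Chrnb4 and Htr3b windows held none of these motifs. Neither the AP-1 motif TGANTCA nor the full ATF or CREB site TGACGTCA, of which the short site is a part, matched in any of the 8 windows. Of all windows, 7.81% held the AP-1 motif, 1.79% the full site, 20.8% the short site and 35.7% a GC box. A match is a description of these letters only.

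Nerve crush under IPA was followed by lower values of the same 6 subunits, and again none rose. Since IPA gavage went on for 3 more days after the crush, injury and longer dosing cannot be told apart in this comparison. Under IPA 22.5% of the tested genes passed as lower, 21.2% as higher and 43.6% in either direction. Groups did not overlap in 7 members, all lower after injury, against 30.8% of the tested genes separated downward, 27.2% upward and 58% in either direction. The median log2 change was -0.88 over the members and -0.02 over all genes tested. Chrna6 read 49.9, 49.5 and 48.4 in IPA and 19.6, 18.9 and 21.0 in IPA-SNC libraries, a fall to 40.3% of the IPA mean and a log2 change of -1.29 ± 0.07 (SE; adjusted limma p of 8.34e-09). Chrnb3 read 12.01, 9.90 and 11.3 in IPA and 4.26, 4.25 and 5.73 in IPA-SNC libraries, a log2 change of -1.15 ± 0.12 (SE; adjusted limma p of 2.80e-06). For both genes the injured libraries lay well below the uninjured ones.

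Htr3a read 141.9, 143.9 and 148.7 in IPA and 66.2, 66.2 and 80.9 in IPA-SNC libraries, a log2 change of -1.03 ± 0.08 (SE; adjusted limma p of 1.68e-07). Htr3b read 18.2, 16.7 and 19.7 in IPA and 8.49, 7.98 and 8.89 in IPA-SNC libraries, a log2 change of -1.06 ± 0.08 (SE; adjusted limma p of 9.35e-08). The injured means were 49.1% and 46.4% of the IPA means. Chrna7 read 44.0, 45.0 and 47.9 in IPA and 26.0, 26.4 and 21.3 in IPA-SNC libraries, a log2 change of -0.88 ± 0.08 (SE; adjusted limma p of 8.21e-07).

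Chrnb4 fell least of the 6. It read 8.18, 8.09 and 7.73 in IPA and 4.89, 5.50 and 6.44 in IPA-SNC libraries, which do not overlap, and the injured mean was 70.1% of the IPA mean. The log2 change was -0.48 ± 0.14 (SE) with an adjusted limma p of 0.0148. Without IPA-SNC replicate 1 it was -0.40 with an adjusted limma p of 0.0649, the highest over the alternatives run. The lowest, 2.01e-05, came from limma with array weights, whose estimate did not converge.

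The other 3 subunits did not pass under IPA. Chrnb2 read 118.4, 115.7 and 112.6 in IPA and 112.2, 109.1 and 109.6 in IPA-SNC libraries, with a log2 change of -0.07 ± 0.04 (SE), the same size as under PBS and again with no overlap between groups (adjusted limma p of 0.208). Chrna4 read 6.05, 5.60 and 4.80 in IPA and 5.45, 5.91 and 7.02 in IPA-SNC libraries, a log2 change of 0.15 ± 0.11 (SE; adjusted limma p of 0.309). Chrna3 read 10.8, 10.6 and 9.78 in IPA and 10.8, 11.2 and 14.0 in IPA-SNC libraries, a log2 change of 0.19 ± 0.17 (SE; adjusted limma p of 0.381). IPA-SNC replicate 3 was the highest of its group for Chrna3, Chrna4, Chrnb3, Chrnb4, Htr3a, Htr3b and Chrna6 and the lowest for Chrna7.

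**Figure D4:**
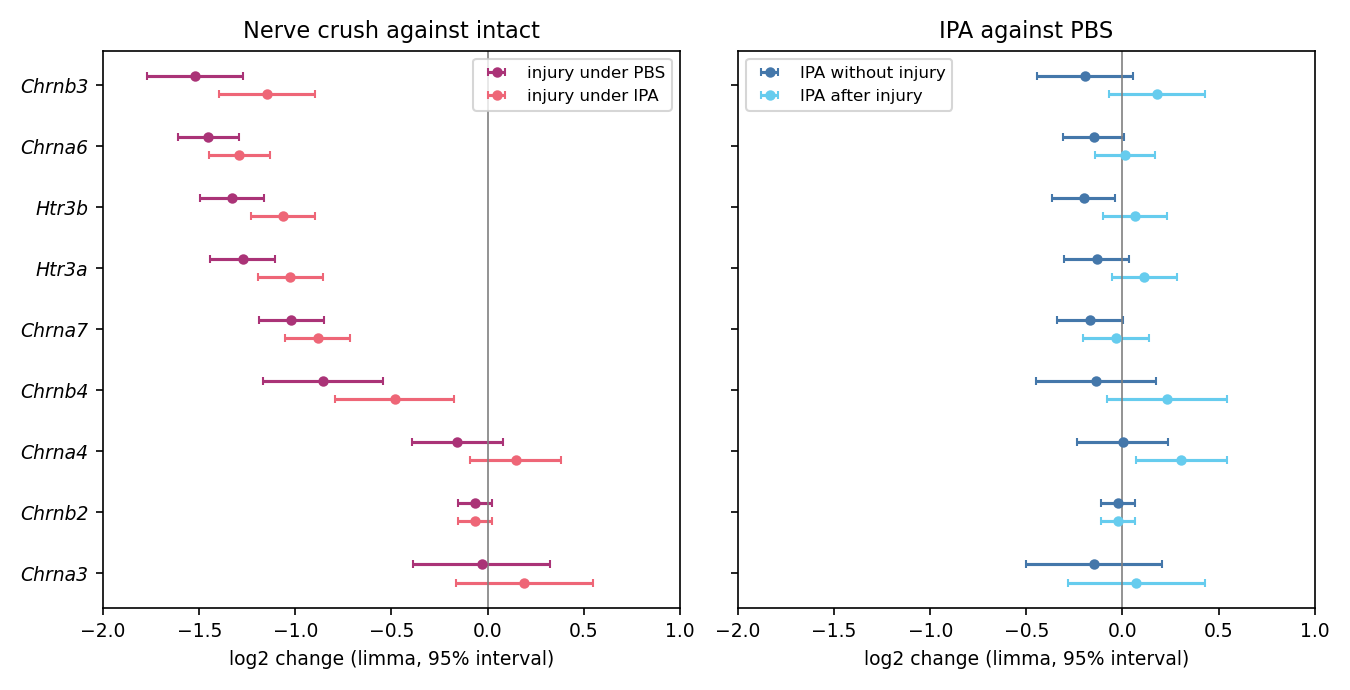
Log2 change of each subunit gene with its 95% interval from the limma model, for nerve crush against intact nerve (left, under PBS and under IPA) and for IPA against PBS (right, without and after injury). The crush intervals of 6 genes lie wholly below 0 under both treatments, and the IPA changes lie between -0.20 and 0.31.

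IPA without injury moved no subunit past the threshold. In limma 0% of the tested genes passed in either direction, and 0 of the 9 members did; edgeR and DESeq2 on the recovered reads also called 0 members. At an unadjusted limma p under 0.05 there was 1 of the 9 members, Htr3b, against 1902 of the 15603 genes tested. Its log2 change was -0.20 ± 0.08 (SE, limma p of 0.0202, adjusted p of 0.408). The change was below 0 in 8 of the 9 members, against 47.1% of all genes tested. The exception was Chrna4, which came to 0.00132 here and below 0 under 3 other scalings. The median was -0.15 over the members and 0.01 over all genes tested.

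In 5 members every IPA library was below every PBS library, while 12.5% of the tested genes showed such a separation downward, 12.7% upward and 25.2% in either direction. These were Htr3b, at 16.7 to 19.7 under IPA against 20.3 to 21.7 under PBS, and Chrna6, at 48.4 to 49.9 against 53.9 to 55.8, with a log2 change of -0.15 ± 0.07 (SE). Htr3a was at 141.9 to 148.7 against 152.4 to 168.9, a change of -0.13 ± 0.08. Chrnb3 (-0.19 ± 0.12) and Chrna7 (-0.17 ± 0.08) were separated by narrow gaps, since the nearest libraries of Chrnb3 read 12.01 and 12.04 and those of Chrna7 47.93 and 47.94. All 5 had adjusted limma p values of 0.408 to 0.442. These are the same PBS libraries that serve as the reference for injury under PBS.

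After injury, IPA moved no subunit past the threshold either. In limma 0% of the tested genes passed and 0 of 9 members did, and edgeR and DESeq2 again called 0 members. Chrna4 was the only 1 of the 9 members at an unadjusted limma p under 0.05, against 1258 of the 15603 genes tested. It read 5.45, 5.91 and 7.02 in IPA-SNC and 5.43, 4.41 and 4.72 in PBS-SNC libraries. The nearest libraries of these groups, at 5.45 and 5.43, barely differ, and the log2 change was 0.31 ± 0.11 (SE; p of 0.0155, adjusted p of 0.581). Of the tested genes, 5.86% had all IPA-SNC libraries above all PBS-SNC libraries, 5.58% had them all below and 11.4% were separated in either direction. The other 8 members overlapped between groups, with log2 changes from -0.03 for Chrna7 to 0.23 ± 0.14 (SE) for Chrnb4.

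The interaction asks whether the effect of injury differed between IPA and PBS. It also takes in the 3 more days of IPA gavage after the crush. No member passed, with an adjusted limma p of 0.9997 for each, and 0% of the tested genes passed; edgeR and DESeq2 called 0 members. The estimate was above 0, that is, a smaller fall or larger rise under IPA, in 8 of the 9 members. The exception, Chrnb2 at -0.000489, was above 0 with median-of-ratios or TMM scaling. Of all genes tested, 52.4% were below 0. The interaction uses the same PBS and IPA libraries as IPA without injury, so the counts of signs in these contrasts are not independent. At an unadjusted limma p under 0.05 there were 3 of the 9 members, against 327 of the 15603 genes tested. They were Htr3b at 0.27 ± 0.11 (SE; p of 0.0280), Chrnb3 at 0.37 ± 0.16 (p of 0.0401) and Htr3a at 0.25 ± 0.11 (p of 0.0438). Each fell less under IPA in these libraries, to 46.4%, 42.9% and 49.1% of the uninjured mean, against 38.4%, 32.3% and 41.2% under PBS. The difference did not survive the correction over all genes. For all 3 genes, IPA-SNC replicates 1 and 2 read within the range of the PBS-SNC libraries, and IPA-SNC replicate 3 alone read above it. After injury the ratios of Chrna6 to Chrnb3, at 6.70 ± 0.80 in IPA-SNC, and of Htr3b to Htr3a, at 0.103 ± 0.008 (SD, n = 3), overlapped between treatments. The ratio of Chrna4 to Chrnb2 per kilobase did not overlap, at 0.0546 to 0.0675 in PBS-SNC and 0.0681 to 0.0898 in IPA-SNC libraries, and was not tested.

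The remaining nicotinic subunits were mostly scarce. Of 9 such genes, 4 were tested after the filter on low values. Chrna5, which passed that filter only through injured libraries, and Chrna1 rose after injury under PBS and under IPA, and Chrna10 fell. Over all genes tested, 23.6% rose and 24.4% fell under PBS, and 21.2% and 22.5% under IPA. Chrna1, the alpha subunit of the muscle receptor, read 1.45, 1.04 and 1.14 in PBS and 2.13, 2.83 and 2.48 in PBS-SNC libraries, a log2 change of 0.80 ± 0.12 (SE; adjusted limma p of 0.000115). Among the PBS-SNC libraries the summed muscle markers were lowest in replicate 2, at 68.1, and Chrna1 was highest there. Among the IPA-SNC libraries the sum was highest in replicate 1, at 226.5, and Chrna1 was lowest there, at 2.10. Without injury the sum and Chrna1 were lowest in the same library. This was replicate 2 in PBS (57.2 and 1.04) and replicate 1 in IPA (28.4 and 1.07). The part of muscle RNA in the change was not tested. Chrna10, which pairs with alpha 9 in hair cells, read 1.97, 1.40 and 2.02 in PBS and 0.517, 0.926 and 0.544 in PBS-SNC libraries, a log2 change of -0.99 ± 0.17 (SE; adjusted limma p of 0.000242). It overlaps Art1 on the other strand over 2668 bases. Chrna2, Chrna9, Chrnd, Chrne and Chrng were not tested, and their highest value in any library was 0.171.

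Genes for assembly and accessory proteins of nicotinic receptors moved in both directions. Of 15 in the list 13 were tested, and 3 rose and 3 fell under PBS, while 2 rose and 5 fell under IPA. Of all genes tested, 23.6% rose and 24.4% fell under PBS, and 21.2% and 22.5% under IPA. The counts of the list under PBS are near these shares. Tmem35a, the chaperone NACHO that nicotinic receptors need for assembly, fell from 50.4 ± 1.28 in PBS to 33.7 ± 2.60 in PBS-SNC (SD, n = 3), a log2 change of -0.58 ± 0.06 (SE; adjusted limma p of 2.74e-06). Ly6h, a membrane protein that holds back alpha 7 surface levels, fell from 35.9 ± 3.98 to 18.05 ± 1.98 (log2 change -0.97 ± 0.13, adjusted p of 3.93e-05), and the calcium sensor gene Vsnl1 fell from 130.6 ± 3.33 to 86.5 ± 9.07. Ly6e rose from 29.9 ± 3.09 to 51.8 ± 5.09 (log2 change 0.78 ± 0.12, adjusted p of 9.04e-05).

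The other 2 rises were Rer1 (0.15 ± 0.04) and Lynx1 (0.11 ± 0.04), named after their values were seen. Lynx1 lost its call when any of 4 of the 6 libraries was left out, and Rer1 without PBS replicate 2, so that 1 to 4 genes of the list rose with 1 library left out. Under IPA 3 to 5 fell with 1 library left out, since Lypd1 and Lypd6b, named after their values were seen, each lost the call in 4 of 6 such fits. Ric3, another nicotinic receptor chaperone and also named after its values were seen, read 80.7 to 91.8 in PBS and 81.0 to 98.2 in PBS-SNC libraries and did not pass.

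Of 12 genes for acetylcholine handling and muscarinic receptors 9 were tested. Of all genes tested, 24.4% fell and 23.6% rose after injury under PBS, and 22.5% and 21.2% under IPA. In the list 5 fell and 1 rose after injury under PBS, with 4 and 1 under IPA. Chrm2, a muscarinic receptor coupled to inhibitory G proteins, fell from 19.2 ± 2.58 to 8.39 ± 1.41 (SD, n = 3; log2 change -1.15 ± 0.11, adjusted limma p of 1.83e-06). Ache, the enzyme that breaks down acetylcholine, fell from 121.8 ± 10.7 to 76.2 ± 9.59, Bche from 17.8 ± 1.01 to 10.0 ± 1.95 and Colq, which anchors Ache, from 3.85 ± 0.12 to 2.38 ± 0.33. The remaining fall was Chrm1 (log2 change -0.43 ± 0.12) and the rise was Chrm3 (0.41 ± 0.15), both named after their values were seen; Chrm3 lost its call when any of 4 of the 6 libraries was left out. The rise under IPA was Slc5a7, which transports choline and lost its call without IPA-SNC replicate 2, and 0 to 2 genes of the list rose under IPA with 1 library left out. Chat, which makes acetylcholine, did not exceed 0.185 in any library.

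Of 20 other serotonin genes 17 were tested. Among all genes tested, 24.4% fell and 23.6% rose under PBS, and 22.5% and 21.2% under IPA. In the list 9 fell and 1 rose under PBS, with 8 and 3 under IPA. The rise was Slc6a4, the serotonin transporter, which read 0.173, 0.379 and 0.232 in PBS and 29.3, 33.5 and 30.4 in PBS-SNC libraries. These values come from 9 to 20 reads and 1473 to 2178 reads, the injured mean was 119 times the PBS mean, and the log2 change was 5.38 ± 0.12 (SE; adjusted limma p of 6.52e-13). Like Chrna5, Slc6a4 was tested only because of the injured libraries, and it overlaps the antisense gene Gm12343 over 960 bases. The other 2 rises under IPA were Htr1f (log2 change 0.46 ± 0.14) and Maoa (0.20 ± 0.07), named after their values were seen; they lost the call in 3 and 5 of the 6 fits that left out 1 library compared. The receptor genes Htr7 (18.0 ± 0.96 to 8.40 ± 0.96, SD, n = 3), Htr1d (35.8 ± 1.45 to 23.4 ± 0.85) and Htr4 (10.4 ± 1.42 to 5.33 ± 0.95) fell. With 1 library left out, 8 or 9 genes of this list fell under PBS and 6 or 7 under IPA. Of the 5 glycine receptor subunits, Glrb alone was tested, and it fell (log2 change -0.57 ± 0.08, adjusted p of 6.08e-05). No gene of these lists passed in limma for IPA without injury, IPA after injury or the interaction.

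Markers of several sensory neuron classes fell in the same libraries as the 6 subunits. For comparison, 24.4% of all genes tested passed as lower and 23.6% as higher under PBS. Under PBS, 5 of 6 markers of non-peptidergic neurons fell and 1, P2rx3 (named after its value was seen), rose, with a summed value of 699 to 727 in PBS and 519 to 611 in PBS-SNC libraries and a median log2 change of -0.68. All 6 markers of A-fibre neurons fell (median -0.43), as did 4 of 4 peptidergic markers (-0.42) and 3 of 4 markers of C low-threshold mechanoreceptors (-0.59). With 1 library left out, 5 or 6 of the A-fibre and 3 or 4 of the peptidergic markers fell. Of 5 itch neuron markers 2 rose and 1 fell. Of 8 pan-neuronal markers 4 rose and 4 fell, with a median of 0.05 and summed values of 7948 to 8671 in PBS and 9942 to 10751 in PBS-SNC libraries. The sum leans on its highest gene, Tubb3 (named after its values were seen), which is among the 4 that rose. Tubb3 read 2548 to 2943 in PBS and 3651 to 4320 in PBS-SNC libraries, so the sum does not measure neuronal RNA as a whole. All 5 macrophage markers rose, from a summed 21.4 to 24.4 up to 71.5 to 72.9. The part of these shifts in the fall of the subunits was not tested.

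Across the 12 libraries some genes outside the family followed the subunits closely, as described by Pearson correlation of log2 values among 14030 genes with a mean of at least 1. The libraries form an injured and an uninjured cluster, which sets most of these values. Chrna6 was nearest to Ankrd27 (0.998), Ncald (0.997) and Myo1e (0.997), and Chrna7 to the delta opioid receptor gene Oprd1 (0.998), Atp2b3 (0.994) and Dgkg (0.994). Chrnb3 and Htr3a were among each other's nearest 3 (0.994), and the nearest 3 of Htr3b were Fam81a (0.995), AI593442 (0.994) and Chrna6 (0.994). For the genes that injury moved less or not past the threshold the best values were lower, at 0.952 for Chrnb4 with Mrap2, 0.917 for Chrnb2 with Galnt10, 0.885 for Chrna3 with Hoxd10 and 0.857 for Chrna4 with Rbm12.

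After the group means were removed, the nearest genes differed. Ankrd27 stayed among the nearest 3 of Chrna6 (0.950) and Oprd1 among those of Chrna7 (0.936). Nrxn3 was among the nearest 3 of both Chrna3 (0.957) and Chrnb4 (0.945). These are values over 12 libraries that share the deviations of single libraries, and they carry no test.

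Other genes share sequence with some members. Chrna6 (chromosome 8, 27403212 to 27413944, minus strand) and Chrnb3 (27368711 to 27399730, plus strand) are neighbours 3481 bases apart, and Htr3a (chromosome 9, 48899213 to 48911099) and Htr3b (48935008 to 48964990), both on the minus strand, lie 23908 bases apart. Chrna7 is on chromosome 7 (63098692 to 63212569), Chrnb2 on chromosome 3 (89746195 to 89764632) and Chrna4 on chromosome 2 (181018380 to 181043546), all on the minus strand. Chrnb2 overlaps Adar on the other strand over 7252 bases. The libraries kept strand, but whether the counting used it is not given in the sources used here, so reads from the shared stretch cannot be told apart. Adar changed by -0.03 ± 0.04 (SE; adjusted limma p of 0.626) after injury under PBS and by -0.16 ± 0.04 (adjusted p of 0.00804) under IPA. Antisense genes also overlap Htr3a (Gm32335, 6770 bases) and Chrnb4 (Gm47877, 8647 bases), and Gm44741 lies inside Chrna7 on its strand (2127 bases), with the same limit.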

How the data were processed

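RNA of 12 libraries, 3 in each of 4 groups named by the labels, was analysed from 1 deposited table. Per the labels' protocols each library pools the ganglia of 2 mice, and the 3 libraries of a group are biological replicates. The table's name says FPKM, but the deposited values behave as CPM: all are whole multiples, within 1e-06, of 1 step per library, which was worth 0.0130 to 0.0199, so reads were recovered from them. Columns sum to 803444 to 818767. The submitters' processing notes name FastQC 0.10.1, R 3.5.0, limma 3.38.3, the aligner STAR 2.7.0, edgeR 3.24.3 and mm10; the read counter is not given in the sources used here.

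All 12 libraries were fitted in limma 3.58.1 (R 4.3.3; trend, 8 residual degrees of freedom) on log2(value + 0.5), keeping 15603 genes with 0.5 or more in at least 3 libraries; a fold change on this scale understates that of low genes. P-values were adjusted by Benjamini-Hochberg over all genes tested. Alternatives were a low-value filter of 1 or none, a pseudocount of 1 or 0.1, TMM, quantile or median-of-ratios scaling, array weights, a replicate block, DESeq2 1.42.0 or edgeR's quasi-likelihood test (4.0.16) on recovered reads, only the 6 libraries compared, each library left out, and merged exons as length. The fit was tested on simulated data. Coordinates and lengths are from GENCODE M21 on mm10.

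All 9 members are named in every contrast. Of the lists of other nicotinic, assembly, acetylcholine, serotonin and glycine receptor genes, those past the threshold after injury under PBS are named, at most 4 a list by smallest p. Cell type markers are given by counts and sums, apart from a few named after their values were seen. The members and lists were chosen with earlier results of these data known. Sequence of Chrna6, Chrnb3 and Htr3a was not used here.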

Additional observations from a re-analysis of the deposited data

How the results depend on the processing

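The falls of Chrna6, Chrnb3, Chrna7, Chrnb4, Htr3a and Htr3b after injury under PBS kept their direction and passed under every alternative run, as did those under IPA with the exception of Chrnb4 without IPA-SNC replicate 1 (range with 1 library left out -0.58 to -0.40). The replicate number as a replicate block left 6 members lower under PBS and 6 under IPA and changed no member's call. The numbers do not pair the libraries: same-numbered libraries of different groups correlated at -0.252 to 0.205 in their deviations from group means, above 0.1 in 2 of 12 pairs, and others at -0.346 to 0.287. Median-of-ratios, TMM and quantile scaling each shifted the median of all genes by less than 0.1.

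Array weights, whose estimate did not converge and gave IPA-SNC replicate 2 a weight of 42.2 against 0.146 to 2.78 in the others, changed the counts most. With them 5259 genes rose and 5891 fell after injury under IPA (Chrnb2 also passed as lower, at -0.0868 with an adjusted p of 0.00199), 2444 and 1716 for IPA without injury (3 members lower: Chrna6, Chrna7 and Htr3b), 2137 and 1863 for IPA after injury (1 member higher, Chrna4), and 952 and 1174 in the interaction (1 member higher, Chrna7). DESeq2 called 1 gene higher and 2 lower for IPA without injury, 9 and 6 after injury, and 0 and 3 in the interaction. Leaving out 1 library gave 0 to 1 genes higher for IPA after injury, with 1 when IPA-SNC replicate 2 or 3 was left out.

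Log2 changes that crossed 0 belonged to members that did not pass. With array weights Chrna3 came to 0.14 after injury under PBS and -0.0474 in the interaction, and Chrnb2 to 0.00797 for IPA without injury. For IPA after injury they gave -0.0801 for Chrna3, -0.00619 for Chrna6, 0.0836 for Chrna7, -0.0307 for Chrnb3 and -0.0199 for Htr3a. Chrna4 for IPA without injury came to -0.0136 (median-of-ratios), -0.00521 (TMM), -0.0136 (quantile), -0.00283 (edgeR) and -0.00921 (DESeq2). Chrnb2 in the interaction came to 0.0190 (median-of-ratios), 0.00660 (TMM), 0.00736 (edgeR) and 0.0164 (DESeq2). With 1 library left out, Chrna3 ran from -0.217 to 0.215 after injury under PBS, -0.335 to 0.0972 for IPA without injury, -0.0420 to 0.140 for IPA after injury and -0.0257 to 0.407 in the interaction, and PBS replicate 3 gave the first 2 upper ends. For IPA without injury Chrna4 ran from -0.0668 to 0.0864, Chrnb2 from -0.0398 to 0.00723 and Chrnb4 from -0.247 to 0.0152. For IPA after injury Chrna6 ran from -0.0654 to 0.108 and Chrna7 from -0.0871 to 0.0647, and Chrnb2 in the interaction from -0.0289 to 0.0181. The cause was not tested.

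With merged exons as length, levels per kilobase in PBS were 1.09 (Chrna4), 11.4 (Chrna7), 14.0 (Chrnb2) and 2.00 (Chrnb3). The ratio of Chrna6 to Chrnb3 was then 9.47, 10.6, 9.83 and 9.30 in PBS, PBS-SNC, IPA and IPA-SNC, that of Chrna3 to Chrnb4 0.927, 1.73, 0.918 and 1.51, and that of Chrna4 to Chrnb2 0.0777, 0.0723, 0.0791 and 0.0928; these shifts follow from the lengths alone.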
